A study of Patiria miniata with 16 samples.

Results

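The question here is how the effect of BAPN on sea star embryos at day 4 differed from its effect at day 2, gene by gene. BAPN (beta-aminopropionitrile) inhibits the lysyl oxidases. The measure is a difference of effects: the log2 ratio of BAPN over control at day 4 minus the same ratio at day 2. It uses 8 of the 16 libraries of the series and was defined for every gene, with no selection on values. Of the 27818 genes in the deposited table, 17519 passed a filter on low counts and were tested.

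Each library was made from a pool of at least 200 wild-type embryos of Patiria miniata, the bat sea star, and polyA RNA was sequenced in stranded, paired-end reads. The 4 groups of 2 libraries were BAPN from hatched blastula to day 4, untreated controls of day 4, BAPN from hatched blastula to day 2, and untreated controls of day 2. In each BAPN group 1 library had 1.2 mM BAPN and 1 had 0.8 mM, and each of them has its own control in the labels. Where values of a group are given below in pairs, the 1.2 mM library or its control comes first and the 0.8 mM library or its control second. Separate cultures within a group are not stated in the labels. The p-values therefore rest on the spread between libraries within groups, estimated over all 16 libraries of the series. This spread may be technical and for BAPN includes any difference of dose.

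Lysyl oxidases are copper enzymes that oxidise lysines in collagen and elastic fibre proteins, which is the first step of their cross-linking. Sea star embryos hatch as blastulae, gastrulate, and build a feeding larva with a gut, coelomic pouches, ciliary bands, nerves and muscle. A gene that controls switch on between the days can therefore show a BAPN effect at the later day that did not exist at the earlier one. For this reason the levels of all 4 groups are given for many of the genes described. It also equals the change from day 2 to day 4 in BAPN embryos minus that change in controls.

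The 8 libraries held between 9945801 and 12730755 counts. Ribosomal RNA genes made up 3.2% of counts in the day 4 control of the 1.2 mM library and 0.39% to 0.962% in the other 7. On the first principal component of the 8 libraries, with 50.4% of the variance, the BAPN day 4 libraries scored 132 and 102 and the day 4 controls -141 and -137. The BAPN day 2 libraries scored 91.4 and 89.6 and the day 2 controls -71.3 and -65.7. Day was split on the next component, which took 23.3% of the variance, with day 4 libraries at 48.8 to 79.7 and day 2 libraries at -30.7 to -121.

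The BAPN effect differed between the days for 4815 genes, 27.5% of those tested (edgeR's quasi-likelihood test, Benjamini-Hochberg adjusted p under 0.05, here "called"). For 2123 genes, 12.1% of those tested, the day 4 effect was higher than the day 2 effect, and for 2692, or 15.4%, it was lower. In a fit of the 8 libraries alone, which tests 16643 genes and estimates the spread without the other libraries, the number higher was 1350. At an unadjusted p under 0.05 there were 6615 genes. The median difference over all tested genes was -0.104 on the log2 scale, and the median size of the effect was 1.054 at day 4 and 0.808 at day 2. BAPN changed 9054 genes at day 4, 51.7% of those tested, with 4275 (24.4%) higher and 4779 (27.3%) lower. At the earlier day it changed 7264 genes, or 41.5%, with 3817 (21.8%) higher and 3447 (19.7%) lower. For 8799 genes, 50.2% of those tested, the 4 BAPN minus control differences of day 4 all lay on 1 side of the 4 of day 2, and this held for 4787 of the 4815 called genes.

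Seen as changes over time, 5235 genes changed from day 2 to day 4 in BAPN embryos, 29.9% of those tested, with 2600 (14.8%) higher and 2635 (15%) lower at day 4. In controls 6690 changed, or 38.2%, with 3836 (21.9%) higher and 2854 (16.3%) lower. The 4 contrasts share the same 8 libraries, so the following counts describe the 4815 genes and are no further tests. Of these genes, 1236 (25.7%) had a called change over time in BAPN embryos alone, made up of 567 that rose and 669 that fell there. More genes, 2070 (43%), had a called change in controls alone, with 1106 that rose and 964 that fell. In 676 genes (14%) both changed in opposite directions, in 574 (11.9%) both changed in the same direction by different amounts, and in 259 neither change was called. Among the 2692 genes with a lower day 4 effect, the median change over time was -0.74 in BAPN embryos and 1.08 in controls. Among the 2123 with a higher day 4 effect it was 0.44 in BAPN embryos and -0.81 in controls.

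**Figure D1:**
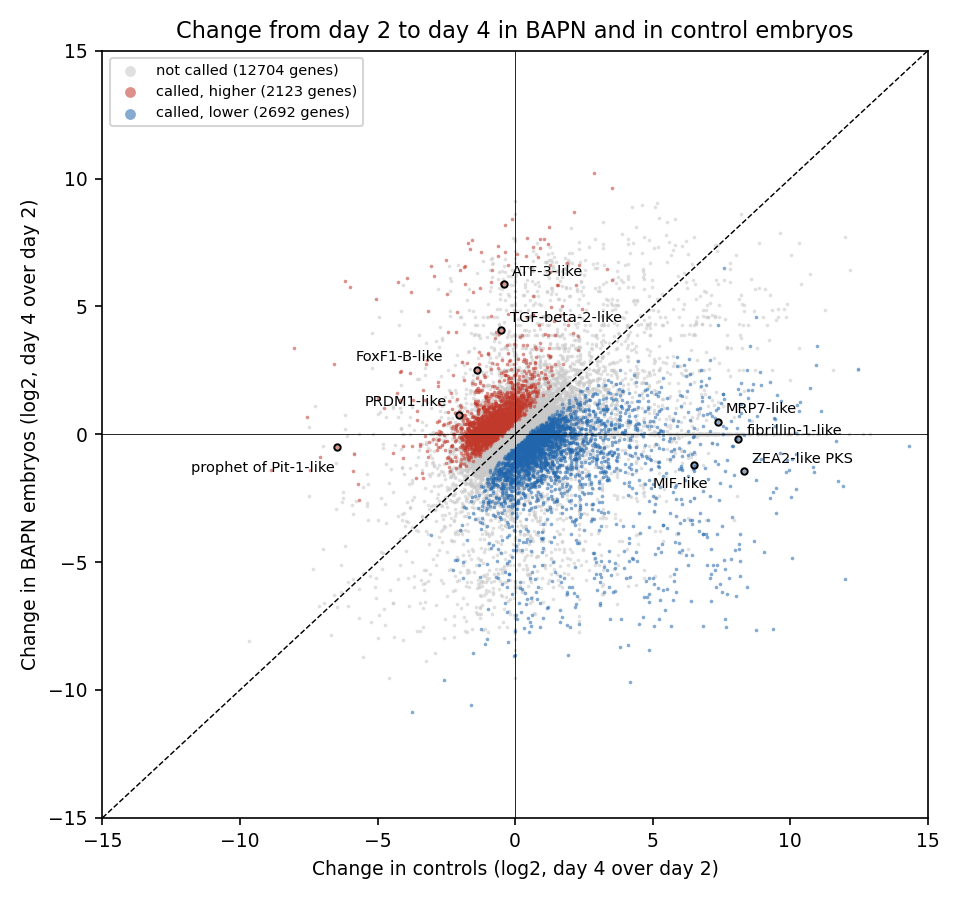
Each point is 1 of the tested genes, with its log2 change from day 2 to day 4 in BAPN embryos on the vertical axis and in controls on the horizontal axis. Genes above the dashed line of equal change have a higher day 4 effect (red, 2123 called) and genes below it a lower one (blue, 2692 called), and the blue cloud stretches to the right, where controls rose between the days; points far from 0 can be genes near 0 counts in a group, whose fitted values depend on the prior count.

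Sorted by the day of the effect, 1761 of the 4815 genes (36.6%) had a called effect at day 4 alone and 925 (19.2%) at day 2 alone. Another 1083 (22.5%) were changed in the same direction at both days and by more at day 4, and 406 (8.43%) by less at day 4. For 525 genes, 10.9% of the called and 3% of those tested, BAPN had called effects of opposite sign at the 2 days. Of these, 311 were lower at day 4 and higher at day 2, or 1.78% of those tested. The other 214, or 1.22%, were higher at day 4 and lower at day 2. Computed within each dose, the difference had the called direction at both doses for 4810 of the 4815 genes. Its median at 1.2 mM and 0.8 mM was 1.2 and 1.19 among the genes with a higher day 4 effect and -1.76 and -1.72 among those with a lower one. The genes were called from these same libraries, so agreement of the doses among them was largely set by the calling. It is no separate evidence.

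**Figure D2:**
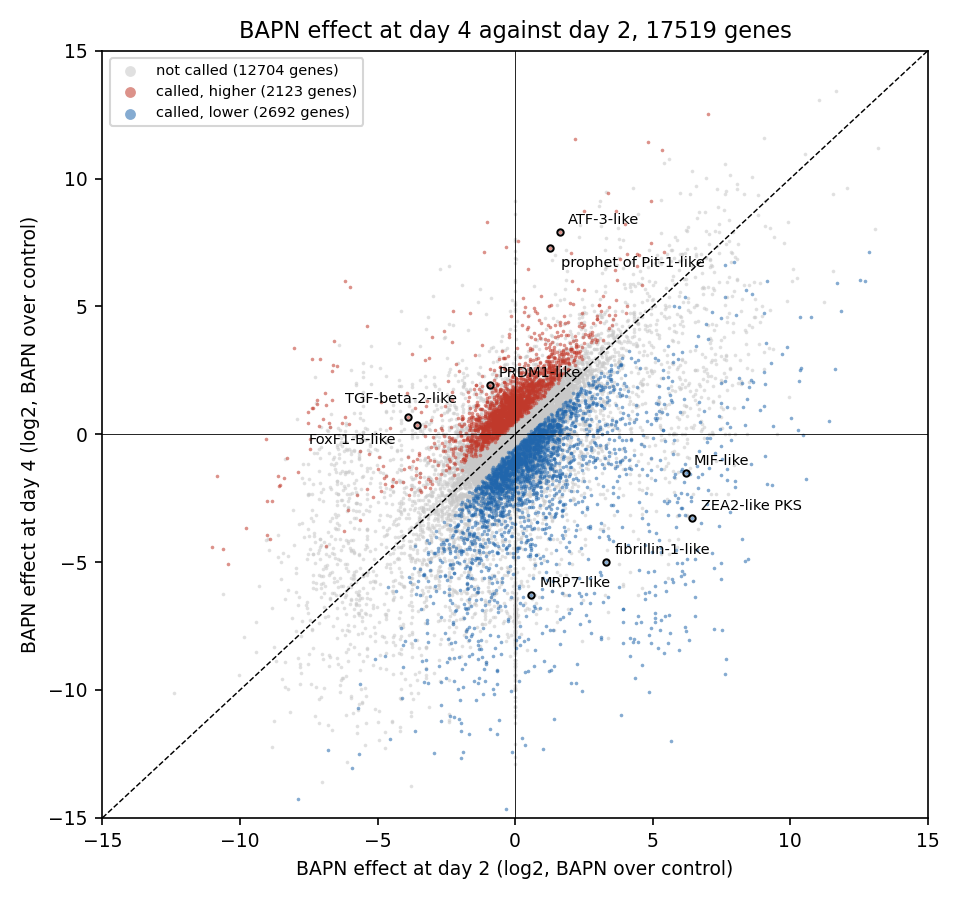
The BAPN effect at day 4 (vertical, log2 of BAPN over control) is plotted against the effect at day 2 (horizontal) for all 17519 tested genes, with called differences in red (higher at day 4) and blue (lower at day 4). The polyketide synthase, fibrillin-1-like and MIF-like genes lie at the lower right, where BAPN raised expression at day 2 and lowered it at day 4.

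The largest lower effects at day 4 belonged to genes that were scarce in day 2 controls and abundant in day 4 controls, while BAPN embryos held intermediate or low levels at both days. Genes named as largest were picked for their size, so their values are likely to be above what new libraries would give. A gene similar to the fungal polyketide synthase ZEA2 (LOC119746280, an enzyme class that assembles small molecules such as pigments; scaffold NW_024037074.1, 6409536 to 6421216, minus strand, Pmin_3.0) had 374 and 490 CPM (counts scaled to library size) in BAPN day 4 libraries and 3687 and 4766 CPM in their controls. At day 2 it had 1290 and 1031 CPM in BAPN libraries and 17.4 and 9.13 CPM in controls. It was thus high in BAPN embryos at day 2 when controls had little, and lower than controls at day 4, with no overlap at either day. The effect was -3.29 ± 0.33 (log2 ± SE) at day 4 and 6.44 ± 0.39 at day 2, a difference of -9.73 ± 0.51 (adjusted p = 1.8e-07, n = 2 libraries per group).

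The fibrillin-1-like gene (LOC119728181, a microfibril protein of the extracellular matrix; NW_024037059.1, 21054958 to 21101735, minus strand) had 19.2 and 48 CPM in BAPN embryos at day 4, against 1027 and 1108 CPM in controls. At day 2 the levels were 37.2 and 39.2 CPM with BAPN and 4.56 and 3.11 CPM in controls. In BAPN embryos no change between the days was called (-0.18, adjusted p = 0.74), while the level rose by 8.11 on the log2 scale in controls. The difference of effects was -8.29 ± 0.54 (adjusted p = 6.5e-07), or -9.12 without the 0.8 mM library of BAPN day 4. Reads of single fibrillin, fibropellin, P450 and flavin-containing monooxygenase copies may be shared between paralogs, so values of 1 copy are uncertain.

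ATP-citrate synthase-like (LOC119734679, which makes cytosolic acetyl-CoA for lipid synthesis; NW_024037067.1, 3274495 to 3287126, plus strand) had 23.0 and 13.5 CPM in BAPN embryos at day 4, against 325 and 333 CPM in controls. On day 2 it had 25.4 and 22.5 CPM with BAPN and 2.53 and 1.51 CPM in controls. The BAPN libraries of both days thus lay between the controls of the 2 days, and the difference was -7.72 ± 0.34 (adjusted p = 1.8e-12). The macrophage migration inhibitory factor-like gene (LOC119730519, named after a vertebrate cytokine; NW_024037061.1, 8274776 to 8279506, plus strand) had 155 and 107 CPM with BAPN and 331 and 417 CPM in controls at day 4. Levels at day 2 were 304 and 302 CPM with BAPN and 4.81 and 3.39 CPM in controls, so that BAPN embryos at day 2 were close to the day 4 control level. Its difference was -7.71 ± 0.31 (adjusted p = 1.8e-12).

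In other genes BAPN embryos showed no called change over time while controls rose. Multidrug resistance-associated protein 7-like (LOC119741063, an ABC efflux pump; NW_024037072.1, 23882520 to 23905702, plus strand) had 11 and 8.28 CPM in BAPN embryos and 811 and 683 CPM in controls at day 4. The day 2 levels were 9.88 and 3.44 CPM with BAPN and 5.06 and 3.95 CPM in controls, groups that overlap. The effect was -6.28 ± 0.34 at day 4 and 0.59 ± 0.38 (adjusted p = 0.25) at day 2, and the difference was -6.87 ± 0.49, or -5.89 without the 1.2 mM library of day 2. A TRPM-like cation channel gene (LOC119744637) was at 4.04 and 7.24 CPM with BAPN, against 281 and 277 CPM in controls at day 4. Its levels were 8.26 and 5.57 CPM with BAPN and 2.28 and 4.71 CPM in controls at day 2, and the difference was -6.63 ± 0.60. Vitellogenin-5-like (LOC119728158, a yolk lipid carrier) had 8.68 and 41.2 CPM with BAPN, against 922 and 761 CPM at day 4. Earlier, at day 2, it had 23.3 and 30.4 CPM against 12.9 and 6.12 CPM, with a difference of -6.55 ± 0.98, or -8.09 without the 0.8 mM library of BAPN day 4 and -5.79 without the 1.2 mM one.

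The LDL receptor-related protein 4-like gene (LOC119743087, a large endocytic receptor) had 37.9 and 65.9 CPM with BAPN, against 103 and 106 CPM at day 4. In day 2 embryos it had 28.9 and 29.9 CPM with BAPN, against 1.10 and 0.377 CPM in controls, so that BAPN libraries were above controls at day 2 and below them at day 4. The effect was -1.0 ± 0.23 at day 4 and 5.27 ± 0.35 at day 2, and the difference of -6.27 was -7.19 without the day 2 control of the 1.2 mM library. On the same scaffold, NW_024037073.1, the LRP6-like gene (LOC119743023, a co-receptor of Wnt ligands in vertebrates) had 13.6 and 24.3 CPM with BAPN, against 242 and 231 CPM at day 4. At day 2 it had 20.3 and 18.7 CPM with BAPN, against 4.73 and 6.59 CPM, and its difference was -5.43 ± 0.42.

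Of the genes with the largest negative differences, the acetylcholine receptor alpha-3-like gene (LOC119730662, a neurotransmitter-gated channel) rested on very few reads at day 2. It had 2.12 and 2.92 CPM with BAPN, against 212 and 205 CPM at day 4. On day 2 it had 1.79 and 0 CPM with BAPN and 1.43 and 0.659 CPM in controls. The fitted difference was -6.21 ± 0.97, and without the 1.2 mM library of BAPN day 2, which leaves that group at 0 counts, it was 0.33. Without the day 2 control of the 1.2 mM library it was -6.83. The day 4 effect of -6.36 ± 0.45 does not use those libraries. The MAM and LDL-receptor class A domain gene (LOC119745888) gave -7.53 ± 0.88, and -14.44 without the day 2 control of the 1.2 mM library, which leaves the day 2 controls at 0 counts. It was -8.38 without the 0.8 mM library of BAPN day 4 and -6.55 without the day 2 control of the 0.8 mM library.

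Genes with a higher effect at day 4 included several regulators of transcription. The homeobox gene similar to prophet of Pit-1 (LOC119738526, in mammals a factor of pituitary development; NW_024037069.1, 12150476 to 12152868, minus strand) had 126 and 99.2 CPM in BAPN embryos at day 4, against 0.857 and 0.573 CPM in controls. Levels at day 2 were 157 and 158 CPM with BAPN and 71.6 and 57.8 CPM in controls. BAPN libraries were above controls at both days. The change over time was -0.48 in BAPN embryos (adjusted p = 0.13) and -6.49 in controls. The effect was 7.28 ± 0.38 at day 4 and 1.28 ± 0.24 at day 2, and the difference was 6.0 ± 0.46 (adjusted p = 2.1e-08). T-box protein 1 (LOC119724510, a factor of mesoderm and pharynx in vertebrates; NW_024037056.1, 8656072 to 8666419, minus strand) had 290 and 335 CPM with BAPN, against 5.49 and 6.96 CPM at day 4. The day 2 levels were 594 and 601 CPM with BAPN, against 96.5 and 112 CPM. Its difference was 3.13 ± 0.27 (adjusted p = 9e-08), with a change over time of -0.93 in BAPN embryos and -4.06 in controls.

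The ATF-3-like gene (LOC119740248, in mammals a factor induced by stress; NW_024037072.1, 29286693 to 29297728, plus strand) behaved differently, since controls held little of it at either day. It had 841 and 235 CPM in BAPN embryos and 2.31 and 2.13 CPM in controls at day 4. Earlier, at day 2, it had 12.4 and 5.67 CPM with BAPN and 2.45 and 3.48 CPM in controls. BAPN libraries were above controls at both days, but by far more at day 4, and the 1.2 mM library was the higher one each time. The effect was 7.91 ± 0.81 at day 4 and 1.63 ± 0.81 (adjusted p = 0.15) at day 2. The difference was 6.28 ± 1.21 (adjusted p = 0.0045), or 5.13 without the 1.2 mM library of BAPN day 4, 6.92 without the 0.8 mM one and 6.96 without the 1.2 mM library of BAPN day 2.

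The differences of a ferritin and an ependymin gene depended on 1 control library. Soma ferritin-like (LOC119726589, iron storage) had 470 and 424 CPM with BAPN, against 2.40 and 0.573 CPM at day 4, an effect of 8.24 ± 0.56. In day 2 embryos it had 10.5 and 5.16 CPM with BAPN and 0.928 and 0 CPM in controls. The difference of 4.24 ± 1.43 (adjusted p = 0.048) turned to -1.3 without the day 2 control of the 1.2 mM library. It was 5.2 without that of the 0.8 mM library, 4.86 without the 1.2 mM library of BAPN day 2 and 3.6 without the day 4 control of the 0.8 mM library, and the call was lost in 5 of the 8 fits that leave out 1 library. Ependymin-related protein 1-like (LOC119730345, a secreted glycoprotein) had 312 and 292 CPM with BAPN, against 11.6 and 8.19 CPM at day 4. At day 2 it had 5.11 and 0.810 CPM with BAPN and 3.63 and 0.0942 CPM in controls, which overlap. Its difference of 4.26 ± 1.24 (adjusted p = 0.033) was 0.11 without the same control, and lost its call in most fits that leave out 1 library. It was 6.18 without the 1.2 mM and 3.55 without the 0.8 mM library of BAPN day 2, and 5.21 without the day 2 control of the 0.8 mM library.

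In a further set of genes BAPN embryos lay below controls at day 2 and near them at day 4. The FoxF1-B-like gene (LOC119739333, a forkhead factor of gut and coelom mesoderm in vertebrates; NW_024037070.1, 9639800 to 9664044, minus strand) had 23.9 and 23.5 CPM with BAPN and 20.8 and 15.8 CPM in controls at day 4. On day 2 it had 4.52 and 3.64 CPM with BAPN, against 48.4 and 48.1 CPM. The effect was 0.37 ± 0.20 (adjusted p = 0.12) at day 4 and -3.56 ± 0.23 at day 2, a difference of 3.93 ± 0.30 (adjusted p = 6.4e-09). Between the days the level rose by 2.53 in BAPN embryos and fell by 1.40 in controls.

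Transforming growth factor beta-2-like (LOC119741605, a secreted signalling ligand) had 47.4 and 21.6 CPM with BAPN and 23.1 and 20.6 CPM in controls at day 4, which overlap. Levels at day 2 were 1.70 and 2.43 CPM with BAPN, against 21.0 and 40.9 CPM. Its difference was 4.56 ± 0.59 (adjusted p = 1.8e-05), or 3.93 without the 1.2 mM library of BAPN day 4. The RFX6-like gene (LOC119725664, in mammals a factor of endocrine pancreas cells) had 2.12 and 6.02 CPM with BAPN and 2.91 and 4.01 CPM in controls at day 4, which overlap. The day 2 levels were 0.426 and 0.709 CPM with BAPN, against 15.5 and 11.1 CPM, and the difference was 4.78 ± 0.96, or 3.83 without the 0.8 mM library of BAPN day 4 and 5.38 without the 1.2 mM one. The unc-4-like homeobox gene (LOC119721322, a factor of motor neuron identity in nematodes) had 13 and 12.2 CPM with BAPN, against 17.1 and 23.0 CPM at day 4. It had 0 and 1.01 CPM with BAPN, against 21.9 and 26.4 CPM at day 2. Its difference was 4.98 ± 0.68, or 10.55 without the 0.8 mM library of BAPN day 2, which leaves that group at 0 counts, and 3.89 without the 1.2 mM one.

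**Figure D3:**
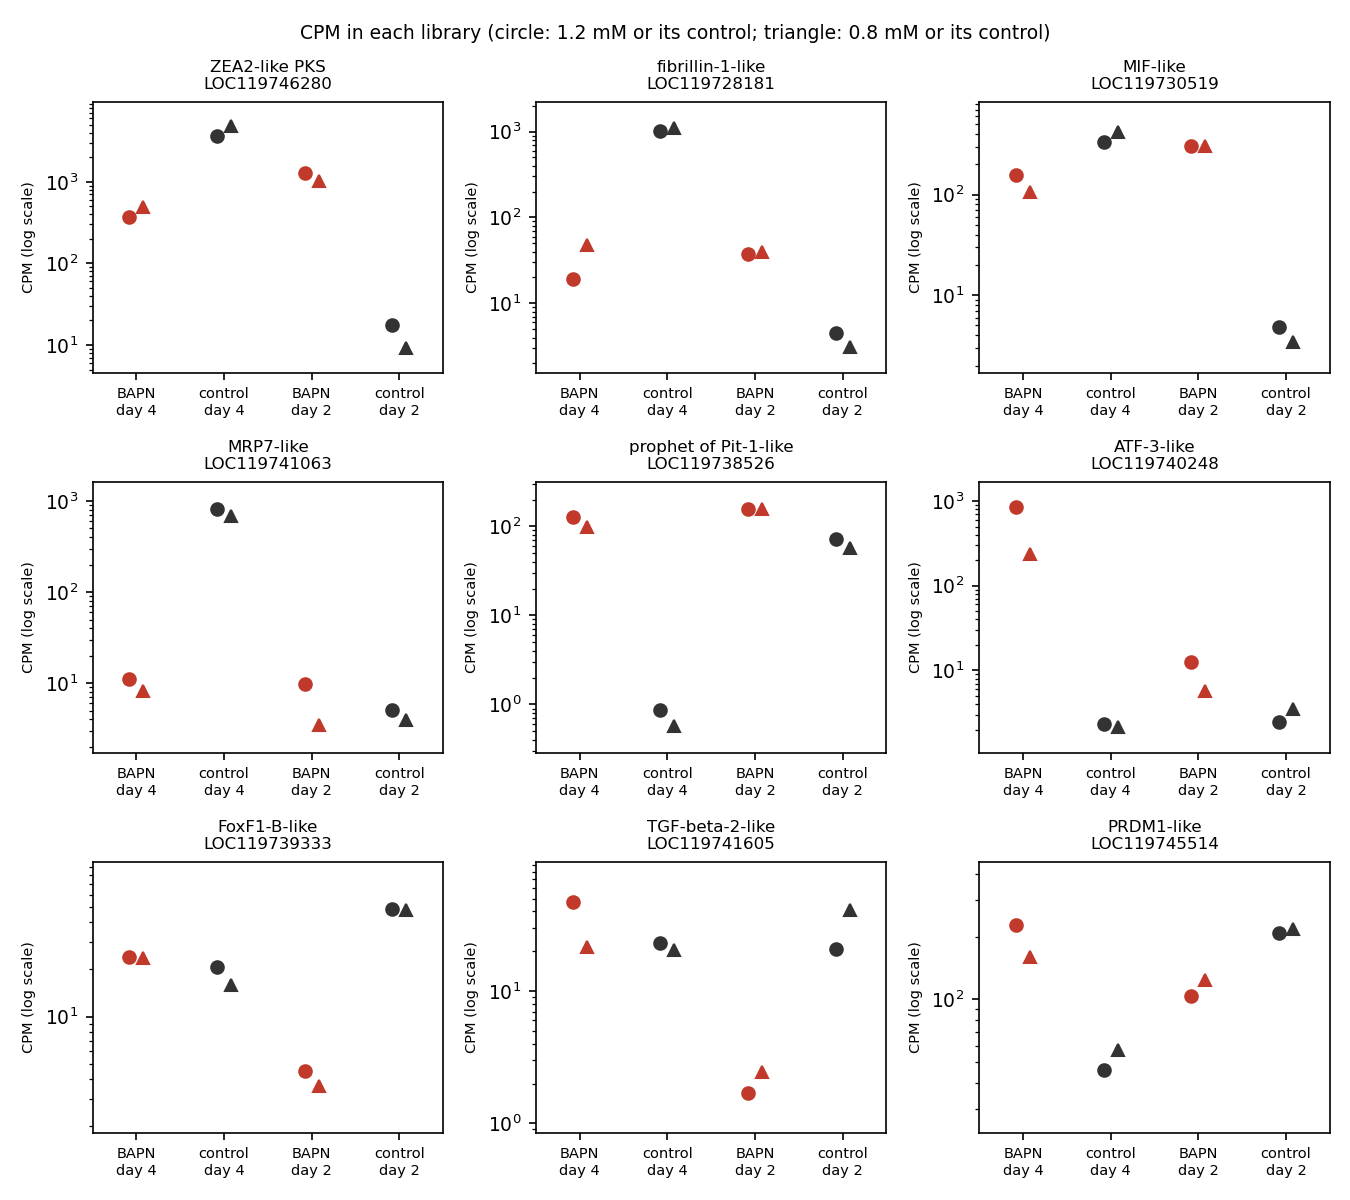
CPM of 9 genes in each of the 8 libraries, on a log axis, with BAPN libraries in red and controls in black, the 1.2 mM library or its control as a circle and the 0.8 mM library or its control as a triangle. In the top row the day 4 controls hold the highest level, in the middle row the day 4 effect is large in both directions, and in the bottom row BAPN embryos are below controls at day 2 and near or above them at day 4.

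The 525 genes with opposite effects were examined by the smaller of their 2 effects. The 8 leading genes that were higher with BAPN at day 4 and lower at day 2 had modest levels. R-spondin-4-like (LOC119728854, a secreted enhancer of Wnt signalling; NW_024037059.1, 35449215 to 35460097, plus strand) had 39 and 26.3 CPM with BAPN, against 12.2 and 13.8 CPM at day 4. Earlier, at day 2, it had 3.92 and 5.67 CPM with BAPN, against 22.1 and 24.4 CPM. The groups did not overlap at either day, and the effect was 1.33 ± 0.30 at day 4 and -2.28 ± 0.32 at day 2. P2X purinoceptor 7-like (LOC119741332, a cation channel opened by ATP) had effects of 2.28 ± 0.49 and -1.21 ± 0.47 at day 4 and day 2. A tRNA methyltransferase catalytic subunit gene (LOC119743036) had effects of 1.27 ± 0.27 and -1.39 ± 0.27, and actin-related protein 6-like (LOC119721547, a subunit of chromatin remodelling complexes) of 1.12 ± 0.31 and -1.06 ± 0.31.

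Nucleolar complex protein 4 (LOC119727031, a factor of ribosome assembly) had effects of 1.92 ± 0.57 at day 4 and -1.42 ± 0.53 at day 2. The aquaporin gene (LOC119745970, a water channel) had 4.84 and 3.57 CPM with BAPN, against 0.514 and 0.737 CPM at day 4. In day 2 embryos it had 1.19 and 0.810 CPM with BAPN, against 4.64 and 4.33 CPM, with effects of 2.73 ± 0.80 and -2.15 ± 0.78. For catechol O-methyltransferase-like (LOC119728166), with effects of 1.45 ± 0.48 and -1.67 ± 0.52, the difference of 3.12 was 5.2 without the 1.2 mM library of BAPN day 2. The beta-3 adrenergic receptor-like gene (LOC119723967, a G protein-coupled receptor) had 1.82 and 1.97 CPM with BAPN, against 0.686 and 0.410 CPM at day 4, and its difference of 3.10 ± 0.87 lost its call without the day 2 control of the 0.8 mM library (adjusted p = 0.053) and without the day 4 control of that library (adjusted p = 0.055).

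Of the 8 leading genes with the reverse pattern, 4 are the polyketide synthase, fibrillin-1-like, ATP-citrate synthase-like and MAM domain genes above. Selenoprotein Pb-like (LOC119723140, a secreted selenium carrier; NW_024037054.1, 16795684 to 16801924, minus strand) had 19.9 and 22.9 CPM with BAPN, against 186 and 164 CPM at day 4. At day 2 it had 13.3 and 10.2 CPM with BAPN, against 1.10 and 3.39 CPM. The groups were apart at both days, with effects of -3.03 ± 0.27 at day 4 and 2.42 ± 0.34 at day 2. Effects of the other 3 were -2.29 ± 0.56 and 3.55 ± 0.68 for sialidase-3-like (LOC119721940, which removes sialic acids), -2.36 ± 0.66 and 2.75 ± 0.70 for a receptor-associated protein of the synapse (LOC119741015, which clusters acetylcholine receptors in vertebrate muscle), and -2.64 ± 0.68 and 2.30 ± 0.71 for vestigial-like protein 2 (LOC119745930, a transcription cofactor of vertebrate muscle). These 3 genes were at or below 17 CPM in every library of the 4 groups.

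**Figure D4:**
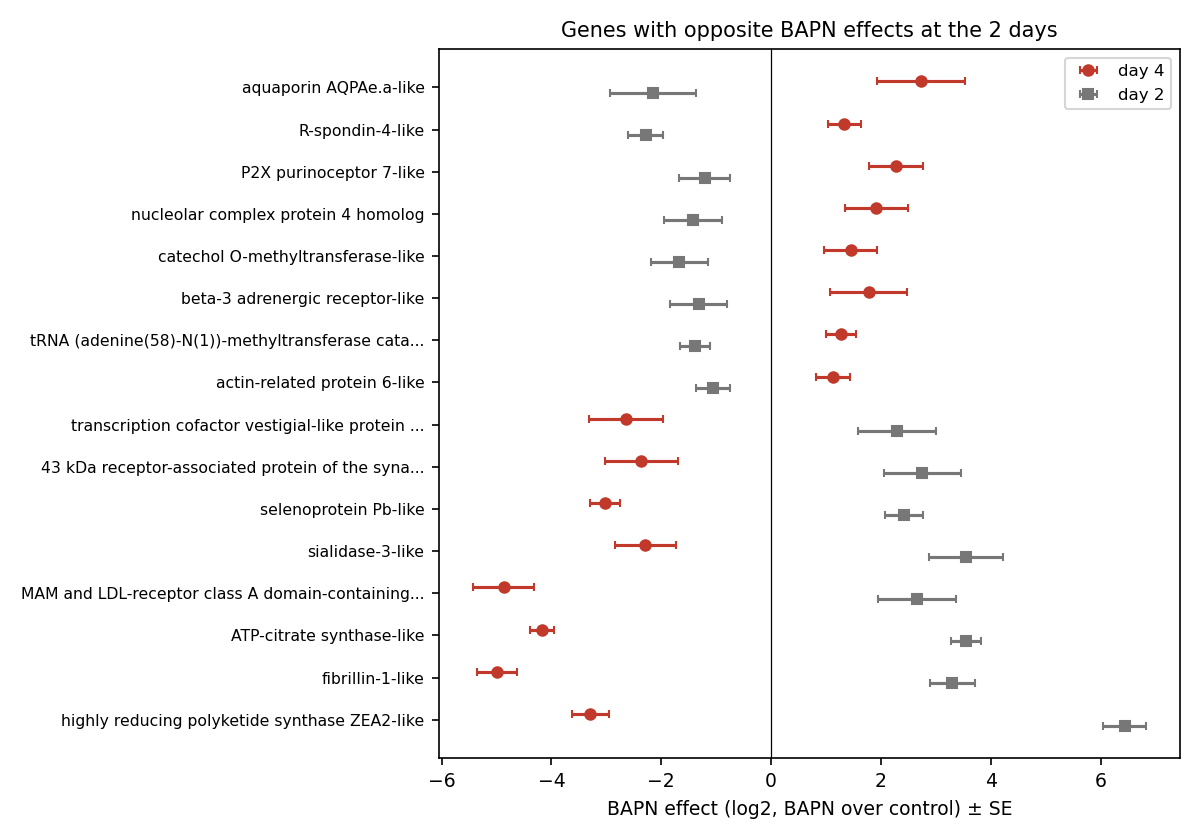
BAPN effects (log2 of BAPN over control ± SE) at day 4 (red circles) and day 2 (grey squares) for the 16 genes with the largest opposite effects. The 8 upper genes lie above 0 at day 4 and below 0 at day 2, and the 8 lower genes the other way round, with the polyketide synthase showing the widest gap, between -3.29 and 6.44.

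The PRDM1-like gene (LOC119745514, a zinc finger repressor that acts in germ cell and immune cell fate in mammals; NW_024037074.1, 10779530 to 10803410, minus strand) also had opposite effects, at high levels. It had 228 and 159 CPM with BAPN, against 46 and 57.1 CPM at day 4. On day 2 it had 104 and 124 CPM with BAPN, against 209 and 218 CPM. BAPN embryos were above controls at day 4 and below them at day 2, with effects of 1.91 ± 0.16 and -0.91 ± 0.15 and a difference of 2.82 ± 0.22 (adjusted p = 8.5e-09).

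Of the 4815 called genes, 578 had fewer than 10 counts in 1 of the groups, and those described here are given by their CPM without a fold. A gene similar to the nematode acetylcholine receptor subunit unc-38 (LOC119741163) had 0 and 0 CPM with BAPN, against 237 and 170 CPM at day 4, and 0.426 and 0.607 CPM with BAPN, against 145 and 101 CPM at day 2. A circumsporozoite protein-like gene (LOC119740258, a name transferred from a malaria parasite protein) had 233 and 181 CPM with BAPN, against 0.0857 and 0.0819 CPM at day 4. Levels at day 2 were 95.5 and 111 CPM with BAPN, against 2.62 and 2.45 CPM. A beta-1,3-glucan-binding protein-like gene (LOC119722448, a recogniser of microbial sugars in insects) had 153 and 115 CPM with BAPN, against 12.2 and 10.6 CPM at day 4, and 149 and 160 CPM with BAPN, against 0.506 and 0 CPM at day 2. In this last gene the BAPN levels of the days overlap, while the day 4 controls lay above those of day 2. A sushi domain gene (LOC119735715) had 9.08 and 7.62 CPM with BAPN, against 206 and 168 CPM at day 4, and 0 CPM in both BAPN libraries, against 14.5 and 17.9 CPM at day 2.

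Gene lists, made from words in product names, showed which kinds of genes carried the difference. Counts over a list describe the members that passed the low-count filter and are to be read against the 12.1% higher and 15.4% lower among all tested genes. In pools of whole embryos, fewer cells of a type and less RNA per cell cannot be told apart.

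Among contractile genes of muscle every called difference was a lower effect at day 4. Of 33 deposited 31 were tested, 16 had a lower effect and 0 a higher one, and the rest were not called. Of the 31, 11 had a group under 10 counts. The median difference was -2.01, or -1.94 with groups near 0 held at 3 counts. The summed level of the tested members was 2340 to 2410 CPM in BAPN embryos and 5620 to 5880 CPM in controls at day 4. For day 2 the sum was 2330 to 2410 CPM with BAPN and 2880 to 3130 CPM in controls. In BAPN embryos 9 of the 31 rose between the days and 8 fell, whereas in controls 24 rose and 1 fell. Myosin light chain 3-like (LOC119746190, a subunit of the muscle motor) had 4.34 and 3.10 CPM with BAPN, against 206 and 155 CPM at day 4, and 3.41 and 3.24 CPM against 12.8 and 9.70 CPM at day 2. Its effect was -5.60 ± 0.29 at day 4 and -1.76 ± 0.29 at day 2. Smooth muscle myosin light chain kinase-like (LOC119721202), which switches on contraction, gave a difference of -5.48 ± 0.56, and myosin regulatory light chain 2-like (LOC119720408) of -3.53 ± 0.27, with no called effect at day 2 for either (adjusted p = 0.17 and 0.38). Without the 0.8 mM library of BAPN day 4 the kinase gave -6.36.

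Among neuronal and synaptic genes lower effects at day 4 outnumbered higher ones, but most members were not called. Of 230 deposited 125 were tested, with 8 higher and 30 lower, and 68 of the 125 had a group under 10 counts. The median difference was -1.67, or -1.30 with groups held at 3 counts. BAPN lowered 75 of them and raised 7 at day 4, and lowered 35 and raised 17 at day 2. Neurexin-1-like (LOC119743568, a presynaptic adhesion protein) had 0.605 and 0.470 CPM with BAPN, against 57.8 and 57.5 CPM at day 4, and 1.87 and 2.53 CPM against 3.38 and 3.11 CPM at day 2. Its difference was -6.16 ± 0.54 (adjusted p = 5e-08). The vesicular glutamate transporter 2.1-like gene (LOC119726821, which loads synaptic vesicles) had 13.6 and 14.3 CPM with BAPN, against 36.4 and 34.7 CPM at day 4. Levels with BAPN were instead higher at day 2, at 18.5 and 24.8 CPM against 1.01 and 1.32 CPM, an effect of 4.21 ± 0.35. The dopamine transporter-like gene (LOC119730823, which clears dopamine from synapses) had effects of -2.96 ± 0.31 at day 4 and 1.72 ± 0.34 at day 2. The excitatory amino acid transporter 2-like gene (LOC119722877, which removes glutamate) was lower at both days, with effects of -8.01 ± 0.31 at day 4 and -2.43 ± 0.24 at day 2. Its difference of -5.58 was -4.91 without the 1.2 mM and -6.84 without the 0.8 mM library of BAPN day 4.

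Among genes of motile cilia nearly all called differences were lower effects at day 4. Of 147 deposited 135 were tested, with 2 higher and 51 lower and a median of -0.58, and the rest were not called. In BAPN embryos 60 of the 135 fell between the days and 2 rose. In controls 20 rose and 14 fell. The summed level was 5390 to 6130 CPM with BAPN and 12700 CPM in both controls at day 4, and 8170 to 8680 CPM with BAPN and 11000 to 11500 CPM in controls at day 2. Axonemal dynein heavy chain 5-like (LOC119745907, a motor of the outer dynein arms) had 23.0 and 33.9 CPM with BAPN, against 195 and 197 CPM at day 4. The day 2 levels were 101 and 77.9 CPM with BAPN, against 117 and 99.3 CPM, which overlap. Its difference was -2.51 ± 0.23, and those of dynein heavy chains 10 (LOC119730483) and 2 (LOC119728259) were -2.54 ± 0.30 and -2.08 ± 0.28.

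Gut and digestion genes had more lower than higher effects. Of 128 deposited 82 were tested, with 4 higher and 23 lower and a median of -2.18, or -2.02 with groups held at 3 counts. Of the 82, 45 had a group under 10 counts. In BAPN embryos 21 rose between the days and 7 fell, and in controls 45 rose and 2 fell. The glutamyl aminopeptidase-like gene (LOC119731228, a brush border peptidase in mammals; NW_024037062.1, 867272 to 901409, plus strand) had 3.43 and 6.77 CPM with BAPN, against 390 and 369 CPM at day 4. Earlier, at day 2, it had 7.84 and 10.5 CPM with BAPN, against 14.6 and 16.7 CPM. Its effect was -6.20 ± 0.23 at day 4 and -0.77 ± 0.21 at day 2, a difference of -5.43, or -6.02 without the 0.8 mM library of BAPN day 4. Sucrase-isomaltase-like (LOC119745545, a disaccharidase) gave a difference of -5.34 ± 0.67, or -4.19 without the 1.2 mM library of BAPN day 2, -6.99 without that of day 4 and -4.57 without the 0.8 mM library of BAPN day 4. Phospholipase A2-like (LOC119722785, which cleaves phospholipids) gave -4.10 ± 0.59, or -5.48 without the 0.8 mM library of BAPN day 4 and -3.39 without the 1.2 mM one. The summed level of the list was higher with BAPN at both days. It was 41100 to 41400 CPM with BAPN and 19600 to 19800 CPM in controls at day 4. The sum at day 2 was 24500 to 26600 CPM with BAPN, against 6900 to 7030 CPM. At day 4 the sum was thus above controls, while the median effect of the members was -2.16.

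Among 530 mesenchyme and immune genes 212 were tested, with 5 higher and 38 lower and a median of -1.08, or -0.88 with groups held at 3 counts. Their lower share was near that of all tested genes and their higher share was below it. A group under 10 counts was found in 88 of the 212. The interleukin-12 receptor beta-2-like gene (LOC119737205, a cytokine receptor) had 32.0 and 21.9 CPM with BAPN, against 39.1 and 40.5 CPM at day 4, and 54.1 and 57.3 CPM with BAPN, against 5.40 and 2.54 CPM at day 2. The effect was -0.56 ± 0.23 at day 4, just inside the threshold, and 3.79 ± 0.28 at day 2, and the difference of -4.36 was -4.95 without the day 2 control of the 1.2 mM library. The interleukin-17D-like gene (LOC119729144, a cytokine) was at 1.92 and 0.564 CPM with BAPN, against 23.6 and 14 CPM at day 4, with a difference of -5.62 ± 1.11, or -6.97 without the day 2 control of the 0.8 mM library, -6.69 without the 1.2 mM library of BAPN day 4 and -4.83 without the day 2 control of the 1.2 mM library.

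**Figure D5:**
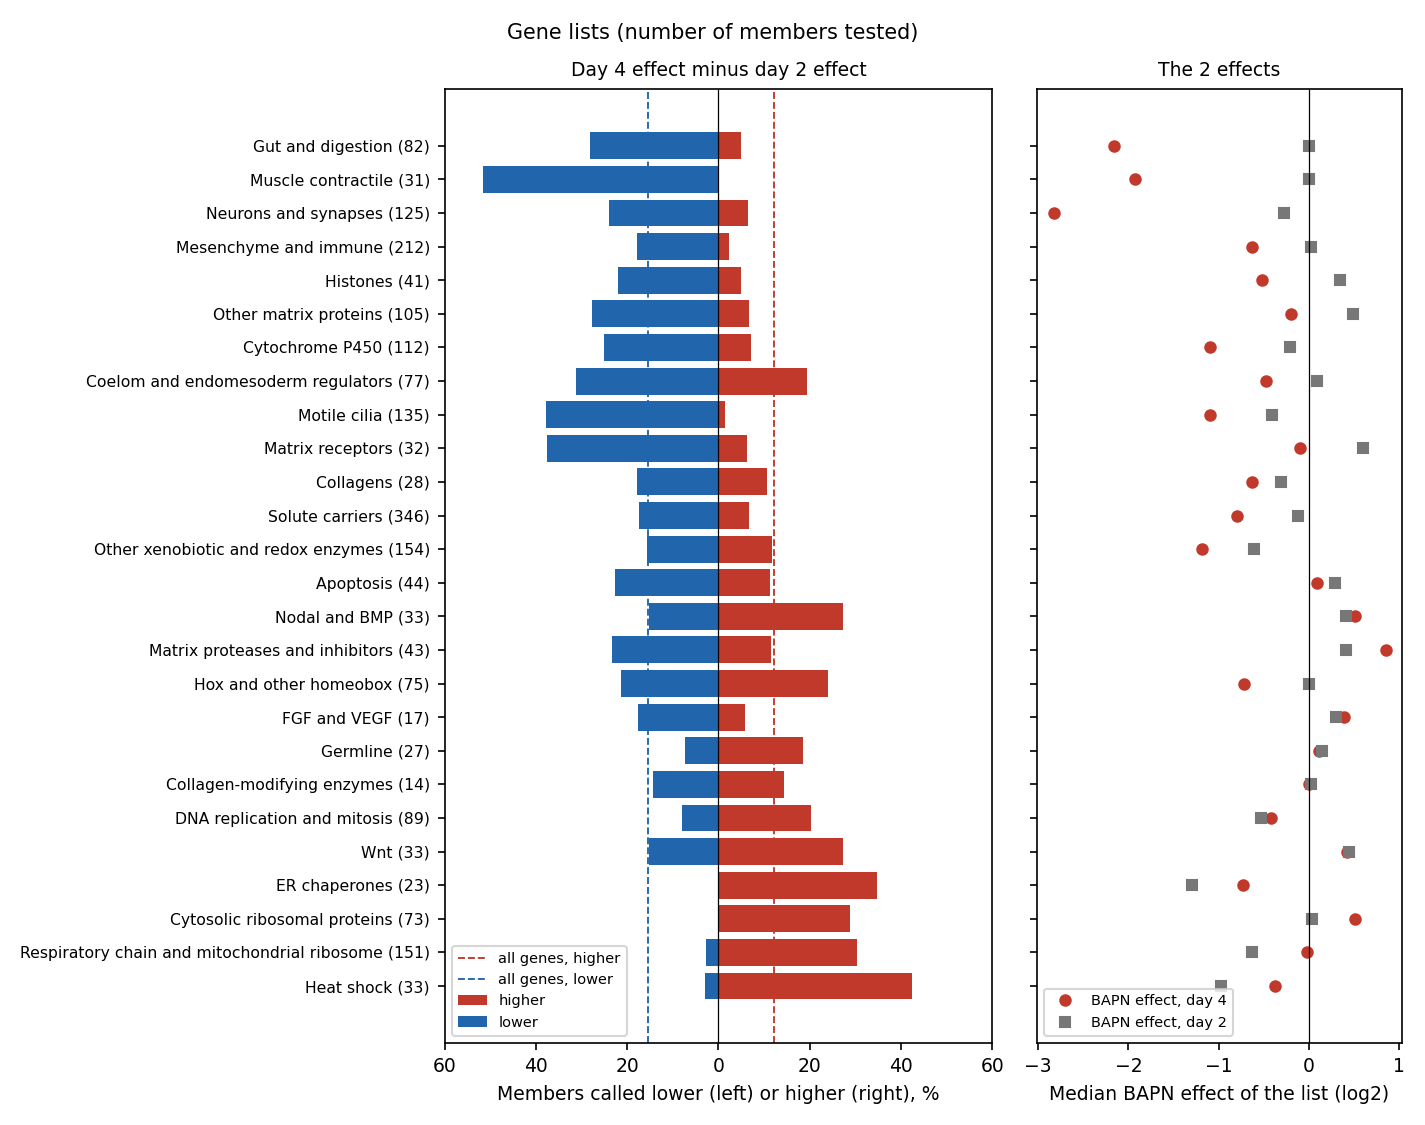
Left, the share of tested members of each list with a called difference, higher at day 4 (red, to the right) or lower (blue, to the left), beside the shares among all tested genes (dashed lines, 12.1% and 15.4%). Right, the median BAPN effect of each list at day 4 (red circles) and day 2 (grey squares), where the muscle, neuron and gut lists lie far below 0 at day 4 and near 0 at day 2, and the chaperone lists are nearer 0 at day 4.

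Matrix genes were examined because BAPN acts on matrix cross-linking. Of 106 collagen genes 28 were tested, with 3 higher and 5 lower, shares near those of all tested genes, and a median of -0.42. The 2 abundant type IV collagen genes, components of basement membranes that lie on scaffold NW_024037056.1 in opposite orientation, were both lower with BAPN at day 4. The alpha-5(IV)-like gene (LOC119724229; 3158674 to 3201586, plus strand) had 282 and 270 CPM with BAPN, against 941 and 809 CPM at day 4, and 733 and 760 CPM with BAPN, against 650 and 715 CPM at day 2. The alpha-2(IV)-like gene (LOC119724226; 3106588 to 3151680, minus strand) had 147 and 176 CPM with BAPN, against 635 and 538 CPM at day 4, and 371 and 393 CPM against 429 and 433 CPM at day 2. Their differences were -1.80 ± 0.19 and -1.69 ± 0.20, with no called effect at day 2 (adjusted p = 0.47 and 0.34). An alpha-1(I)-like gene (LOC119729774) had a difference of -3.38 ± 0.75, with a called effect at day 2 alone (2.53 ± 0.57), and became -2.64 without the day 2 control of the 0.8 mM library and -4.82 without that of the 1.2 mM library.

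Of 23 enzymes that modify collagen 14 were tested, with 2 higher and 2 lower, shares near those of all tested genes. Lysyl oxidases, the target of BAPN, gave 2 tested genes, both named homolog 2A-like. The first (LOC119735518; NW_024037048.1, 2990736 to 3009565, plus strand) had 5.65 and 4.23 CPM with BAPN, against 15.6 and 11.6 CPM at day 4, and 5.20 and 5.06 CPM with BAPN, against 14.9 and 16.3 CPM at day 2. It was lower with BAPN at both days, and the difference of effects was 0.14 ± 0.70 (adjusted p = 0.94). The second (LOC119738367; NW_024037069.1, 20173612 to 20178490, minus strand) had 6.96 and 6.68 CPM with BAPN, against 0.857 and 0.328 CPM at day 4. In day 2 embryos it had 3.49 and 0.101 CPM with BAPN and 5.91 and 2.45 CPM in controls, which overlap. Its difference was 4.70 ± 1.41 (adjusted p = 0.016), but it lost its call without the day 2 control of the 1.2 mM library (3.99, adjusted p = 0.053) or the day 4 control of the 0.8 mM library (4.23, adjusted p = 0.078), and was 8.74 without the 1.2 mM library of BAPN day 2, 3.78 without the 0.8 mM one and 5.57 without the day 4 control of the 1.2 mM library.

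Tolloid-like protein 1 (LOC119745357) and bone morphogenetic protein 1 (LOC119731558), proteases that trim procollagens in vertebrates, had differences of -1.64 ± 0.31 and -0.85 ± 0.19, and without the 0.8 mM library of BAPN day 4 the first was -2.24. BAPN raised both at day 2, by 0.93 ± 0.22 and 1.01 ± 0.13. For tolloid-like protein 1 the day 4 effect was -0.71 ± 0.22. Prolyl 4-hydroxylase alpha-1-like (LOC119731136, which hydroxylates collagen prolines) was lower at day 2 by -0.93 ± 0.24. At day 4 its effect was -0.03 ± 0.23, and its difference of 0.90 (adjusted p = 0.048) was 0.60 without the 0.8 mM library of BAPN day 2, and the call was lost in 5 of the 8 fits that leave out 1 library.

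Of 152 other matrix genes 105 were tested, with 7 higher and 29 lower. Their median was -0.61, or -0.38 with groups held at 3 counts. The fibrillin-2-like gene (LOC119744245; NW_024037074.1, 32931892 to 33028017, plus strand) had 3.73 and 7.34 CPM with BAPN, against 2560 and 2397 CPM at day 4, and 9.71 and 5.67 CPM with BAPN, against 331 and 195 CPM at day 2. It was far below controls at both days, and further below at day 4, by a difference of -3.72 ± 0.55, or -4.31 without the 0.8 mM library of BAPN day 4. Matrix receptors had 2 higher and 12 lower of 32 tested (33 in the table), with a median of -0.45. Integrin alpha-8-like (LOC119719439, which binds matrix ligands in vertebrates) had 33.1 and 32.0 CPM with BAPN, against 72.4 and 69.7 CPM at day 4. At day 2 it had 62.6 and 51.3 CPM with BAPN and 41.2 and 46.1 CPM in controls, and the difference was -1.51 ± 0.28.

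Matrix proteases and their inhibitors had 5 higher and 10 lower of 43 tested (58 in the table), with a median of -0.16. Matrix metalloproteinase-18-like (LOC119735925, named after a frog collagenase) had 925 and 610 CPM with BAPN, against 36.1 and 24.4 CPM at day 4, and 711 and 586 CPM with BAPN, against 2.87 and 2.07 CPM at day 2. The change over time was 0.24 in BAPN embryos (adjusted p = 0.36) and 3.60 in controls, and the difference was -3.36 ± 0.34. Metalloproteinase inhibitor 3-like (LOC119731666, an inhibitor of such proteases) had 29.4 and 30 CPM with BAPN and 29.3 and 35.1 CPM in controls at day 4. On day 2 it had 278 and 357 CPM with BAPN, against 71.1 and 85.0 CPM, and the effect was -0.12 ± 0.16 (adjusted p = 0.56) at day 4 and 2.02 ± 0.15 at day 2. The 72 kDa type IV collagenase-like gene (LOC119720279) was further below controls at day 4, with effects of -4.43 ± 0.21 and -2.14 ± 0.18 at day 4 and day 2.

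Signalling genes went both ways. Of 37 nodal and BMP genes 33 were tested, with 9 higher and 5 lower and a median of -0.25. Nodal (LOC119731756, a TGF-beta family ligand that sets left-right and oral-aboral axes in echinoderm embryos; NW_024037063.1, 5767799 to 5772676, plus strand) had 155 and 187 CPM with BAPN, against 21.9 and 29.6 CPM at day 4. Levels at day 2 were 237 and 153 CPM with BAPN and 176 and 176 CPM in controls, which overlap. The change over time was -0.19 in BAPN embryos (adjusted p = 0.51) and -2.77 in controls, and the difference was 2.58 ± 0.29 (adjusted p = 2e-06). The BMP4-like gene (LOC119732060, a ligand of the opposing BMP branch; NW_024037063.1, 4260941 to 4276509, minus strand) had 5.75 and 5.36 CPM with BAPN, against 73.8 and 67.0 CPM at day 4, and 35.6 and 56.3 CPM with BAPN, against 31.1 and 26.5 CPM at day 2. Its difference was -4.33 ± 0.43, with a fall in BAPN embryos (-3.04) and a rise in controls (1.29). Follistatin-related protein 5-like (LOC119732438, of a family of secreted TGF-beta antagonists) had a difference of -3.09 ± 0.53, or -3.87 without the day 2 control of the 1.2 mM library.

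Of 35 Wnt genes 33 were tested, with 9 higher and 5 lower and a median of 0.23. Wnt-7b-like (LOC119738535, a ligand) had 6.86 and 6.58 CPM with BAPN, against 24.8 and 24.5 CPM at day 4, and 3.15 and 1.21 CPM with BAPN, against 43.0 and 46.2 CPM at day 2. Its effect was -1.87 ± 0.32 at day 4 and -4.32 ± 0.37 at day 2, and the difference of 2.44 ± 0.49 was 3.31 without the 1.2 mM library of BAPN day 2. Both named Wnt antagonists had lower effects at day 4. Dickkopf 3-like (LOC119745558) had 0.706 and 2.63 CPM with BAPN, against 23.7 and 20.8 CPM at day 4, and 24.9 and 53.2 CPM with BAPN, against 20.3 and 17.4 CPM at day 2. Frizzled-related protein 3-like (LOC119725500) had 0.706 and 0.940 CPM with BAPN, against 17.2 and 16.1 CPM at day 4, and 17.9 and 19.9 CPM with BAPN, against 20.6 and 30.8 CPM at day 2. Their differences were -4.76 ± 0.54 and -3.88 ± 0.57, the first being -6.02 without the 0.8 mM library of BAPN day 4 and -4.09 without either the 1.2 mM one or the 0.8 mM library of BAPN day 2. FGF and VEGF genes had 1 higher and 3 lower of 17 tested (52 in the table), a lower share near that of all tested genes. FGF receptor 4-like (LOC119720196) was raised at both days, by 1.49 ± 0.28 at day 4 and 3.83 ± 0.31 at day 2.

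Of 96 regulators of coelom and endomesoderm 77 were tested, with 15 higher and 24 lower and a median of -0.59. Of 94 homeobox genes 75 were tested, with 18 higher and 16 lower and a median of -0.12. Beside FoxF1-B, T-box 1 and the prophet of Pit-1-like gene, the pituitary homeobox-like gene (LOC119731189, a relative of Pitx, a factor of left-right asymmetry in vertebrates) had 0.807 and 0.564 CPM with BAPN, against 41.0 and 57.0 CPM at day 4. The day 2 levels were 1.11 and 2.83 CPM with BAPN, against 6.41 and 3.39 CPM, and the difference was -4.79 ± 0.80, or -3.98 without the 0.8 mM library of BAPN day 2. Nkx-2.5-like (LOC119740145, a factor of heart mesoderm in vertebrates) had a difference of 2.77 ± 0.92 (adjusted p = 0.029), which lost its call in 5 of the 8 fits that leave out 1 library, including that without the 0.8 mM library of BAPN day 2 (1.99, adjusted p = 0.12), and was 5.29 without the 1.2 mM library of BAPN day 2.

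Germline genes had 5 higher and 2 lower of 27 tested (36 in the table), with a median of 0.08. The DDX4 gene LOC119728304 (vasa, an RNA helicase of germ cells) had 86.0 and 70.1 CPM with BAPN, against 30.7 and 26.4 CPM at day 4, and 45.0 and 44.6 CPM with BAPN, against 26.2 and 26.0 CPM at day 2. BAPN libraries were above controls at both days, and the difference was 0.67 ± 0.23 (adjusted p = 0.031), which lost its call without the 1.2 mM library of BAPN day 4 (0.55, adjusted p = 0.11), the day 4 control of the 0.8 mM library (0.62, adjusted p = 0.11), or either BAPN library of day 2 (adjusted p = 0.067 and 0.059). The second DDX4 gene (LOC119742591) had 65.4 and 59.4 CPM with BAPN, against 26.7 and 22.7 CPM at day 4, and 36.9 and 39.8 CPM against 22.5 and 17.6 CPM at day 2, a difference of 0.40 ± 0.26 (adjusted p = 0.28).

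Nanos 3-like (LOC119721081, a translational repressor of germ cells) had 14.5 and 6.39 CPM with BAPN, against 3.69 and 3.11 CPM at day 4, and 28.9 and 27.7 CPM with BAPN, against 6.41 and 7.63 CPM at day 2. BAPN raised it at both days and the difference was not called (-0.39 ± 0.54, adjusted p = 0.65). A further nanos gene (LOC119721088) had 2.22 and 0.846 CPM with BAPN and 0 and 0 CPM in controls at day 4, and 2.73 and 4.05 CPM against 0.169 and 1.69 CPM at day 2, too few reads for a fold. CPEB2-like (LOC119739653, which controls polyadenylation of stored mRNAs) had effects of -2.94 ± 0.19 and -1.41 ± 0.17 at day 4 and day 2. Pumilio 3-like (LOC119737303, an RNA-binding protein) had 1.14 ± 0.14 and -0.48 ± 0.14, again of opposite sign.

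Among chaperone genes nearly all called differences were higher effects at day 4, and most members were not called. Of 24 genes of the endoplasmic reticulum 23 were tested, with 8 higher and 0 lower. Their median effect was -0.73 at day 4 and -1.29 at day 2. BiP-like (LOC119720212, the main Hsp70 chaperone of the endoplasmic reticulum; NW_024037076.1, 13023289 to 13033465, plus strand) had 761 and 559 CPM with BAPN, against 1224 and 864 CPM at day 4, and 182 and 238 CPM with BAPN, against 1334 and 1227 CPM at day 2. Its effect was -0.66 ± 0.18 at day 4 and -2.61 ± 0.19 at day 2, and in BAPN embryos the level rose by 1.65. Protein disulfide isomerases A6 (LOC119724894) and A4 (LOC119745254), which form disulfide bonds, had differences of 1.26 ± 0.23 and 1.18 ± 0.27. Of 33 heat shock genes, all tested, 14 were higher and 1 was lower, with a median of 0.59. Heat shock cognate 71 kDa-like (LOC119729619, a constitutive Hsp70) had 1151 and 744 CPM with BAPN and 1166 and 1039 CPM in controls at day 4, and 613 and 696 CPM with BAPN, against 2581 and 2264 CPM at day 2. The mitochondrial Hsp75-like gene (LOC119727480) changed sign, with effects of 1.37 ± 0.13 and -0.61 ± 0.12 at day 4 and day 2.

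Among ribosomal and mitochondrial genes nearly all called differences were higher effects at day 4, although most members were not called. Of 73 cytosolic ribosomal protein genes, all tested, 21 were higher and 0 lower, with a median of 0.49. Computed within each dose, the median was 0.23 at 1.2 mM and 0.7 at 0.8 mM. Their summed level was 89800 to 102000 CPM with BAPN and 62600 to 72100 CPM in controls at day 4, and 68000 to 75500 CPM with BAPN and 63900 to 73100 CPM in controls at day 2, where the ranges overlap. Between the days 48 rose in BAPN embryos and 0 fell, and in controls 0 rose and 0 fell. For the 60S protein L5-like gene (LOC119734187) the levels were 3120 and 3347 CPM with BAPN, against 1852 and 1572 CPM at day 4, and 2100 and 2240 CPM with BAPN, against 1836 and 2171 CPM at day 2. Its difference was 0.80 ± 0.19 (adjusted p = 0.003). The S12-like (LOC119729200), S14a (LOC119732619) and L23 (LOC119721009) genes had differences of 0.81, 0.79 and 0.78. None of these kept its call in every alternative fit.

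Among genes of the respiratory chain and mitochondrial ribosome, all of them tested, 46 were higher and 4 lower, 33.1% of the list, with a median of 0.55. BAPN lowered 41 and raised 40 at day 4, and lowered 69 and raised 5 at day 2. In BAPN embryos 19 fell between the days and 8 rose, and in controls 70 fell and 3 rose. The mitochondrial ribosomal protein S14-like gene (LOC119724754) had 33.9 and 33.6 CPM with BAPN, against 14.5 and 16.9 CPM at day 4, and 20.1 and 16.3 CPM with BAPN, against 29.7 and 39.4 CPM at day 2. It thus crossed from below to above controls, with effects of 1.10 ± 0.22 at day 4 and -0.92 ± 0.22 at day 2.

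Genes of DNA replication and mitosis had 18 higher and 7 lower of 89 tested (90 in the table), with a median of 0.10. The replication helicase subunit gene mcm7-B-like (LOC119723574) had 29.8 and 26.2 CPM with BAPN, against 57.1 and 54.7 CPM at day 4, and 17.2 and 8.71 CPM with BAPN, against 109 and 115 CPM at day 2, a difference of 2.10 ± 0.30. The ribonucleotide reductase M2 B-like gene (LOC119729041, which supplies deoxynucleotides) went the other way, at 31.7 and 54.8 CPM with BAPN, against 530 and 495 CPM at day 4, and 273 and 356 CPM with BAPN, against 859 and 881 CPM at day 2. Its difference was -2.10 ± 0.27. Histones had 2 higher and 9 lower of 41 tested (43 in the table), with a median of -0.87. In BAPN embryos 26 of the 41 fell between the days and 1 rose, and in controls 12 fell and 2 rose. PolyA selection captures most replication-dependent histone mRNAs poorly, so these levels are uncertain. Apoptosis genes had 5 higher and 10 lower of 44 tested (56 in the table), with a median of -0.28.

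Cytochrome P450 genes, which include enzymes of foreign-compound metabolism, had more lower than higher effects. Of 149 deposited 112 were tested, with 8 higher and 28 lower and a median of -0.59. Their summed level was nonetheless higher with BAPN at both days. It was 7530 to 8050 CPM with BAPN and 3560 to 3660 CPM in controls at day 4. The sum at day 2 was 4970 to 5430 CPM with BAPN, against 2800 to 2900 CPM. P450 2U1-like (LOC119720578, a monooxygenase) had 9.48 and 11.2 CPM with BAPN, against 14.4 and 18.8 CPM at day 4, and 43.7 and 52.9 CPM with BAPN, against 6.33 and 2.54 CPM at day 2. BAPN raised it at day 2 (3.43 ± 0.34), and the day 4 effect was -0.68 ± 0.32 (adjusted p = 0.079). Its difference was -4.11, or -4.86 without the day 2 control of the 1.2 mM library. P450 4F12-like (LOC119738224) had 3.73 and 3.86 CPM with BAPN, against 67.9 and 84.4 CPM at day 4, and 11 and 22.4 CPM with BAPN and 23.0 and 15.9 CPM in controls at day 2, a difference of -4.09 ± 0.43, or -3.48 without the 0.8 mM library of BAPN day 2. Other xenobiotic and redox enzymes had 18 higher and 24 lower of 154 tested (220 in the table), shares close to those of all tested genes, with a median of -0.33.

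The neighbouring flavin-containing monooxygenase 5-like genes, whose enzyme class adds oxygen to nitrogen and sulfur compounds, gave the smallest p-values of the named genes. LOC119746042 (NW_024037074.1, 6283202 to 6292299, minus strand) had 167 and 194 CPM with BAPN, against 226 and 264 CPM at day 4, and 324 and 283 CPM with BAPN, against 11.6 and 12.3 CPM at day 2. LOC119746041 (6270272 to 6280244, minus strand) had 253 and 268 CPM with BAPN, against 305 and 366 CPM at day 4, and 497 and 405 CPM with BAPN, against 18.4 and 19.0 CPM at day 2. Effects at day 4 were -0.44 ± 0.13 and -0.37 ± 0.13, against 4.67 ± 0.16 and 4.59 ± 0.16 at day 2, with differences of -5.11 ± 0.20 (adjusted p = 5.8e-13) and -4.96 ± 0.21 (adjusted p = 7.1e-13). The BAPN libraries of day 2 were above the controls of both days in both genes.

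Of 593 solute carriers 346 were tested, with 23 higher and 60 lower, and their lower share was near that of all tested genes. The median was -0.41, or -0.34 with groups held at 3 counts. The organic cation transporter-like gene (LOC119729757) had 0.807 and 0.470 CPM with BAPN, against 40 and 46.8 CPM at day 4, and 39.9 and 34.6 CPM with BAPN, against 59.4 and 61.9 CPM at day 2. It fell by 5.86 in BAPN embryos between the days (adjusted p = 0.00024), with a change of -0.48 in controls (adjusted p = 0.49), a difference of -5.37 ± 0.97. The organic anion transporter 3A1-like gene (LOC119724285) had effects of -2.06 ± 0.34 at day 4 and 2.60 ± 0.37 at day 2, with 9.08 and 6.02 CPM with BAPN, against 30.6 and 32.4 CPM at day 4, and 17.1 and 12.9 CPM with BAPN, against 2.03 and 2.92 CPM at day 2.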

How the data were processed

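Gene counts of 16 libraries were taken as deposited by the authors, as raw counts per gene, and no column belonged to another series. The labels' protocols give Trizol extraction, polyA selection and stranded, paired-end sequencing. The sources used here do not give the aligner, the counter or the build. Scaffold positions are those in the deposited table, which equal those of RefSeq assembly Pmin_3.0.

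Here edgeR 4.0.16 (R 4.3.3) was fitted to all 16 libraries in 8 groups, with its robust quasi-likelihood test, TMM scaling, a low-count filter (minimum count 10, minimum total 15) and Benjamini-Hochberg adjustment over all 17519 tested genes at 0.05. A prior count of 2 entered the log2 CPM values, used for principal components, differences within each dose and the separation of the days. The fitted effects used edgeR's default prior count instead. Each SE was computed as the size of the fitted effect over the square root of the test's F statistic. It is therefore approximate, above all for genes near 0 counts. The other 8 libraries only informed the spread. CPM use TMM-scaled totals. On simulated counts of 17159 genes, the genes to change were drawn from those above a CPM floor in every group of the comparison. Of these, 100 genes were changed 2-fold and 100 were changed 4-fold. The difference of effects was called in 24% of the former and 60% of the latter, shares that do not cover genes scarce in a group. It was also called in 13 genes simulated without a change. In this run the share of false calls among all calls was thus above the 0.05 set as threshold.

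Genes were named by size of the called difference, with every group at 10 counts or more and mean log2 CPM of at least 1, by the smaller of 2 opposite effects, by size within a list, or as fixed collagen enzymes and germline genes. Genes with a group under 10 counts are given by CPM in the results. Apart from the fixed genes, named genes also had to show separated days. For these, all BAPN minus control differences of the later day lay on 1 side of those of the earlier day. This separation was a condition of naming in the same libraries and is no separate evidence for the named genes. The comparison, the lists and the rules were chosen with earlier results of these data known. Alternatives were the 8 libraries alone, total counts, RLE factors, DESeq2 1.42.0, no filter, a stricter filter, ribosomal RNA left out, a replicate block, and each library left out. List medians with groups held at 3 counts were added after seeing the data. The labels number no replicates but name a control for each BAPN library, and these pairs did not deviate together over genes. The block fit uses the 12 libraries in such pairs.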

Additional observations from a re-analysis of the deposited data

Results flagged for a closer look

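Each value here is a difference between the BAPN effect at day 4 and that at day 2, by the test of the difference itself. It was called for 4815 genes, and for 525 of them the effects at the 2 days were also called with opposite signs.

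Among the named genes with opposite effects, those higher at day 4 had differences of 4.87 for the aquaporin gene (LOC119745970), 3.62 for R-spondin-4-like (LOC119728854), 3.5 for P2X purinoceptor 7-like (LOC119741332) and 3.34 for nucleolar complex protein 4 (LOC119727031). The values were 3.12 for catechol O-methyltransferase-like (LOC119728166), 3.1 for the beta-3 adrenergic receptor-like gene (LOC119723967), 2.66 for the tRNA methyltransferase subunit (LOC119743036) and 2.19 for actin-related protein 6-like (LOC119721547). Over the fits that leave out 1 library, nucleolar complex protein 4 ranged between 2.65 without the 0.8 mM library of BAPN day 4 and 4.23 without the day 4 control of that library, and was 3.98 without the 1.2 mM library of BAPN day 2. Catechol O-methyltransferase-like ranged between 2.34 and 5.2, without the 0.8 mM and the 1.2 mM library of BAPN day 2. The beta-3 adrenergic receptor-like gene was 2.67 without the day 2 control and 2.83 without the day 4 control of the 0.8 mM library, and lost its call in both.

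Those lower at day 4 had differences of -9.73 for the polyketide synthase (LOC119746280), -8.29 for fibrillin-1-like (LOC119728181), -7.72 for ATP-citrate synthase-like (LOC119734679) and -7.53 for the MAM domain gene (LOC119745888), the last being -14.44 without the day 2 control of the 1.2 mM library. The values were -5.84 for sialidase-3-like (LOC119721940), -5.44 for selenoprotein Pb-like (LOC119723140), -5.11 for the receptor-associated protein of the synapse (LOC119741015) and -4.94 for vestigial-like protein 2 (LOC119745930). Sialidase-3-like was -8.22 without the day 2 control of the 0.8 mM library, -4.86 without that of the 1.2 mM library and -6.69 without the 0.8 mM library of BAPN day 4. Vestigial-like protein 2 was -6.22 without the day 2 control of the 0.8 mM library, -4.17 without that of the 1.2 mM library, and -3.8 and -5.53 without the 1.2 mM and the 0.8 mM library of BAPN day 2. Selenoprotein Pb-like was -6.4 without the day 2 control of the 0.8 mM library and -4.76 without that of the 1.2 mM library. The receptor-associated protein of the synapse was -4.58 and -5.83 without the same controls. All of these kept their direction in every fit that left out a library. The causes were not tested.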

How the results depend on the processing

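The number of called genes ran from 3565 with the 8 libraries alone to 5270 with DESeq2, and from 3689 to 5032 over the fits that leave out 1 library. Genes with a higher effect at day 4 numbered 1350 with the 8 libraries alone, against 2123 with all 16 in the fit, in a fit that tests 16643 genes and sets the spread from fewer samples. Calls shared in the same direction were 73.6% (8 libraries alone) to 100% (ribosomal RNA genes left out) of the 4815. With total counts in place of TMM the split was 2289 higher and 2521 lower. Over all alternatives, the list median ran from -2.29 to -1.14 for neurons and from -3.2 to -1.94 for gut. It ran from -2.24 to -1.55 for muscle and from -0.71 to -0.23 for collagens. Within each dose, the muscle median was -2.08 at 1.2 mM and -1.21 at 0.8 mM. Some lists with a median near 0 differed in sign between these doses, such as germline (0.21 and -0.28) and collagen-modifying genes (0.36 and -0.42).

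The control that the labels name for each BAPN library did not deviate together with it (correlations 0.013, -0.007 and 0.023). With these pairs as a replicate block 4199 genes were called, in a fit of the 12 libraries of such pairs that tests 17154 genes, so the count is not the change from the block alone. Of 144 called genes named by the rules, 116 kept call and direction in all 16 settings, 28 lost the call in at least 1, and 4 changed sign. The sign changed for LOC119730662 without the 1.2 mM library of BAPN day 2 (0.33), for LOC119726589 without the day 2 control of the 1.2 mM library (-1.3), and without the 0.8 mM library of BAPN day 2 for LOC119745046 (0.45) and LOC119731350 (1.6). Among genes not called, LOC119735518 was -0.05 without the 1.2 mM library of BAPN day 4 and 0 without the day 4 control of the 0.8 mM library, and LOC119721081 was 0.07 without the 0.8 mM library of BAPN day 4. Over the fits that leave out 1 library, these genes ranged from -7.09 to 0.33, -1.3 to 5.63, -5.49 to 0.45, -5.21 to 1.6, -0.05 to 0.41 and -1.06 to 0.07, in the order given. The causes were not tested. LOC119745046 had 0.706 and 1.5 CPM with BAPN, against 328 and 263 CPM at day 4, and 0 and 0.607 CPM with BAPN, against 4.22 and 2.92 CPM at day 2, and its fitted values depend on the prior count. In the simulated counts, with few genes changed, 24% of 2-fold differences were called. The data hold far more called genes, which makes the adjusted threshold less strict, so this share need not hold there. With 2 libraries per group, differences near 2-fold can still be missed.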

Other observations

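Protein domain families, as given in the deposited table, showed further gene groups with a difference, read against 12.1% higher and 15.4% lower among all tested genes. Of 44 DEAD-box helicases, enzymes that unwind RNA, 24 had a higher effect at day 4 and 2 a lower one, with a median of 0.73. Of 112 genes with an RRM RNA-binding domain 45 were higher and 9 lower, of 79 with WD40 repeats 30 and 10, and of 40 AAA ATPases 17 and 3. Of the 112 RRM genes 60 fell over time in BAPN embryos and 81 in controls. Of 44 DEAD-box genes 6 fell in BAPN embryos and 28 in controls.

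Other families had more lower than higher effects, among them some of membrane and secreted proteins. Of 67 ion channels with an Ion_trans domain 1 was higher and 29 lower, and of 29 neurotransmitter symporters (SNF) 1 and 12. Of 26 genes with the Sema domain of semaphorins, guidance proteins of axons and cells, 0 were higher and 10 lower. In BAPN embryos 0 of them rose over time, while 14 rose in controls. Of 45 genes with CUB domains 4 were higher and 19 lower, and of 38 kinesins, microtubule motors, 1 and 15. NACHT genes, a class with innate immune receptors, had 0 higher and 20 lower of 110, or 18.2%, a lower share near that of all tested genes. These families overlap in members with each other and with the lists above, and were read out after the data were seen.

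The next tested gene on the scaffold had a called difference of the same direction for 16.5% of genes with a higher effect and 21.6% of those with a lower one, against 12.1% and 15.4% among all tested genes. It had the opposite direction for 13.7% and 10.7% of them, and no test of these shares was run. Long noncoding RNAs were called in 9.34% of 910 and protein-coding genes in 28.8% of 16239.

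Levels in groups outside the comparison were as follows. The polyketide synthase (LOC119746280) had 1402 and 1718 CPM in day 4 embryos given BAPN from mid-gastrula, at 1.2 mM and 0.8 mM, and 65.4 and 34.7 CPM in the day 4 recovery libraries of 1.2 mM and 0.8 mM. The ATF-3-like gene (LOC119740248) had 43.7 and 30.9 CPM and 2.89 and 2.10 CPM in those groups. The MIF-like gene (LOC119730519) had 236 and 235 CPM and 1.49 and 0.976 CPM. All recovery libraries were therefore below both day 4 groups of the comparison for the polyketide synthase and MIF-like genes.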
